A study of Homo sapiens with 33 samples.

Results

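Transcription factors and chromatin regulators known from the bipotential gonad, the genital ridge before it becomes an ovary or a testis, were followed by bulk RNA sequencing while human embryonic stem cells went through gonadal differentiation with and without activated FOXL2. The 10 genes, WT1, NR5A1, GATA4, GATA6, LHX9, LHX2, EMX2, CBX2, SIX4 and TCF21, were chosen by name among the 58735 genes of the count table, and all 10 were found. The cells were clone 24 of H9-DDdCas9VP192-FOXL2, a line made from H9, an established human embryonic stem cell line, in which a destabilised, catalytically dead Cas9 fused to the VP192 activator is directed to FOXL2. The cells differentiated for 14 days in intermediate mesoderm medium, to which small molecules, inhibitors and growth factors were added only up to day 4. FOXL2 was switched on at day 4 with doxycycline and trimethoprim. From then on control cells had the plain medium and induced cells the medium with these 2 drugs. The 33 libraries formed 11 groups of 3: all cells at day 4, and then, every 2 days from day 6 to day 14, cells without (CTRL) and with (IND) both drugs. Every group carried the activator, and the 3 libraries of a group were technical replicates of 1 biological replicate of 1 clone. IND differed from CTRL by the drugs as well as by FOXL2, so that the effects of the drugs and of FOXL2 cannot be told apart here.

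In the embryo, the gonad starts as a thickening of the coelomic epithelium, the cell layer that lines the body cavity. GATA4 is needed for that thickening, WT1, EMX2, LHX9 and CBX2 are needed for the ridge to grow or persist, and several of them act on NR5A1, the nuclear receptor that later drives steroid hormone genes. GATA6 is the close relative of GATA4 in mesoderm and endoderm. LHX2 is a LIM homeobox relative of LHX9 that is also known from the forebrain. SIX4 is a homeobox factor that acts upstream of NR5A1, and TCF21 is a basic helix-loop-helix factor of the mesenchyme of gonad, kidney and heart. FOXL2 is a forkhead factor of the ovarian supporting cells.

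FOXL2 lay between 147.5 and 577 CPM (counts scaled to library size) in all 15 IND libraries and at most at 0.388 CPM in the 18 CTRL and day 4 libraries, as the labels state. Each library held 23940837 to 51912815 counts. The day 10 IND library of replicate 2 was the shallowest and stood apart from the others of its group, with chi-squared values per gene of 227 and 246 against them, where replicates of the other groups gave 7.82 to 128. Its summed level of 6 pluripotency markers was 1995.0 CPM, led by LIN28A at 1812 CPM, while the other libraries from day 8 on had 159 to 886 CPM. POU5F1 was at 1.04 CPM in it and NANOG at 0.259 CPM. At day 4, 4 days into differentiation, POU5F1 was at 75.7, 70.4 and 69.4 CPM and NANOG at no more than 3 counts per library. For the members, the comparisons of IND with CTRL at day 10 are therefore also given without this library. The values of neighbouring genes and lists at day 10 and the correlations between members include it. The p-values describe the spread between the libraries of 1 experiment, and because the RNA was bulk RNA, fewer cells that express a gene and less RNA per cell cannot be told apart.

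The members are all annotated as protein coding in GRCh38. WT1 spans chr11:32387775-32435630, NR5A1 chr9:124481236-124507430 and SIX4 chr14:60709528-60724348, all on the minus strand. On the plus strand lie LHX9 (chr1:197911902-197935478), LHX2 (chr9:124001670-124033301), EMX2 (chr10:117542444-117549546), CBX2 (chr17:79778132-79787983) and TCF21 (chr6:133889138-133895553). WT1, GATA6, LHX2, EMX2 and TCF21 overlap antisense genes of the table, and the libraries did not keep the strand, so reads in such an overlap cannot be told apart by strand. WT1-AS shares 113 bases with the 5′ end of WT1 and GATA6-AS1 shares 436 bases with that of GATA6.

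RefSeq promoter sequences (GRCh38.p14) were matched for WT1, NR5A1, GATA6, LHX9, LHX2, EMX2, SIX4 and TCF21. The first sequence shown is the stretch of 159 bases just before the annotated start of WT1 (chr11:32435631-32435789, minus strand). It is shown because it lies upstream of WT1 and at the same time inside the span of WT1-AS, whose level is given beside that of WT1. Capitals mark its 13 CG dinucleotides. The second is the stretch of 250 bases upstream of TCF21 (chr6:133888863-133889112, plus strand), which is shown because it held the 1 match of the motif search, the GATA site in capitals, beginning 31 bases before the RefSeq start.
WT1: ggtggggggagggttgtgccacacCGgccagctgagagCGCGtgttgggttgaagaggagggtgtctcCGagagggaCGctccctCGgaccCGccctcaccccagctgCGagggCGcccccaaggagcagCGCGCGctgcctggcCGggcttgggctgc
TCF21: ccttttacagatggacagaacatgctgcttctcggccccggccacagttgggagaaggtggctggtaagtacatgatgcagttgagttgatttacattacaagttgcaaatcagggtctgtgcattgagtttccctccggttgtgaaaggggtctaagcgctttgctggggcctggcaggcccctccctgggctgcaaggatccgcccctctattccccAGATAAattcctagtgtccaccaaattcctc
The search covered the 250 bases upstream of each start on both strands for the forkhead core TGTTTAC, the NR5A1 site AAGGTCA and the GATA site AGATAA, none of which contains another. Of 35116 RefSeq promoters, 2.98%, 3.44% and 9.17% held them. These are matches of letters in 1 window and describe no binding.

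The order of the members by level per transcript length (FPKM) changed during differentiation. At day 4 GATA6, CBX2 and GATA4 led, with GATA6 making up 49.3% and GATA4 12.1% of the summed mean FPKM of the 10 genes. GATA4 was the highest member in CTRL from day 8 on, whereas in IND GATA6 stayed ahead of it until day 10 and GATA4 led at days 12 and 14. WT1 was the third highest in CTRL from day 10 and in IND at day 14, when it made up 18.3% of the sum in CTRL and 15.8% in IND. EMX2, NR5A1 and LHX9 held the 3 lowest places in both arms at all 5 days.

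During differentiation without induction WT1 and LHX9 appeared, GATA4, LHX2 and TCF21 rose and CBX2 fell. In the comparison of CTRL with day 4 the number of members called (adjusted p under 0.05, edgeR's quasi-likelihood test) was 4 of 8 tested at day 6, against 21.6% of all genes tested. It was 5 of 9 at day 8 (all genes 37.1%) and 6 of 9 at day 10 (all genes 45.1%). Day 12 gave 6 of 9 (all genes 48.1%) and day 14 gave 7 of 9 (all genes 47.6%). WT1, GATA4, LHX2 and TCF21 were higher at every one of these days and LHX9 from day 8, its first tested day. CBX2 was lower from day 10 and GATA6 at day 14. In IND the same comparison called 2 of 8 tested at day 6 (all genes 26.5%) and 4 of 8 at day 8 (all genes 35.8%). It called 4 of 8 at day 10 (all genes 21.6%) and 7 of 10 at day 12 (all genes 37.1%). Without the day 10 IND library of replicate 2 it also called 4 of 8 at day 10. No share of all genes is given beside that count, so nothing is read from it. At day 14 it called 7 of 9 (all genes 50.6%). WT1, LHX9 and NR5A1, at the floor at day 4, passed the low count filter of these comparisons only through the later group, where they were high, and are included in the counts. Among the 7 at day 12 is NR5A1, whose call was lost in 8 of 13 alternatives. Both series share the 3 day 4 libraries. Scaling by library totals alone in place of TMM moved the median of all genes by 0.134 to 0.229 on the log2 scale in the comparisons with day 4 and by no more than 0.0658 between IND and CTRL.

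Between IND and CTRL of the same day, WT1, GATA4 and LHX9 were the members that were called lower at most days. At day 6, 3 of 8 tested members were called, all lower in IND (WT1, GATA4 and LHX2), where 3.66% of all genes tested were called. At day 8, 4 of 9 were called, WT1, GATA4 and LHX9 lower and CBX2 higher, with 14.2% of all genes. LHX9 is in this count although it passed the filter at day 8 only through CTRL, where it was high. At day 10, 2 of 9 were called, WT1 and GATA4, both lower, with 2.03% of all genes. LHX9 is among the 9 tested although it passed the filter at day 10 only through CTRL as well. WT1, GATA4 and LHX9 were called lower at day 12, 3 of 10, and again at day 14, 3 of 9, with 5.42% and 8.43% of all genes called. The median log2 fold change of the tested members lay between -0.51 and -0.31 on the 5 days, where that of all genes lay between -0.01 and 0.02. Without the day 10 IND library of replicate 2, 6 members were called at day 10, with LHX9 and LHX2 added as lower and CBX2 and TCF21 as higher, while the share of all genes rose to 18.2%.

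**Figure D1:**
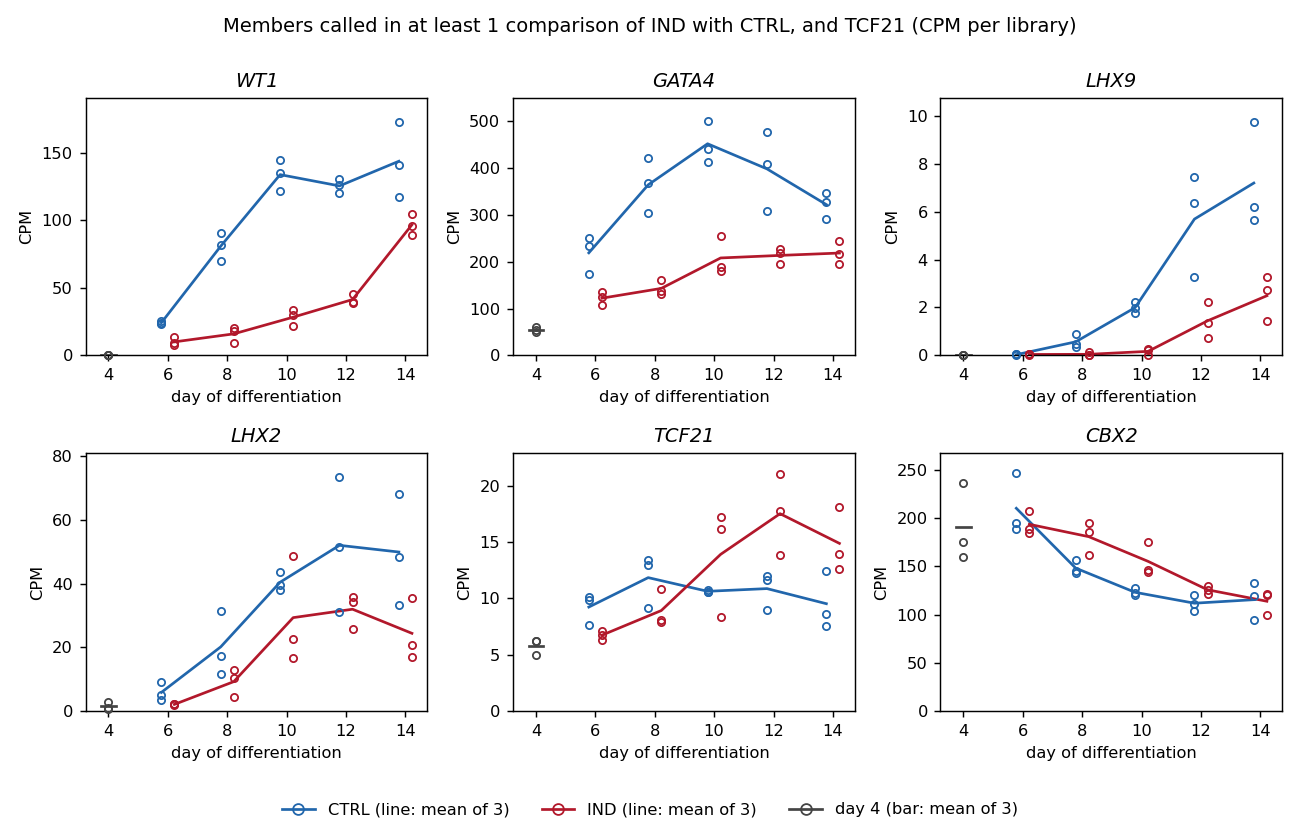
CPM of 6 members by day of differentiation, with 1 open circle per library. Lines join the means of the 3 CTRL (blue) or IND (red) libraries of a day and the grey bar is the day 4 mean, and the vertical axes start at 0 and differ between genes. The IND libraries of WT1 and GATA4 lie below the CTRL libraries at all 5 days.

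**Figure D2:**
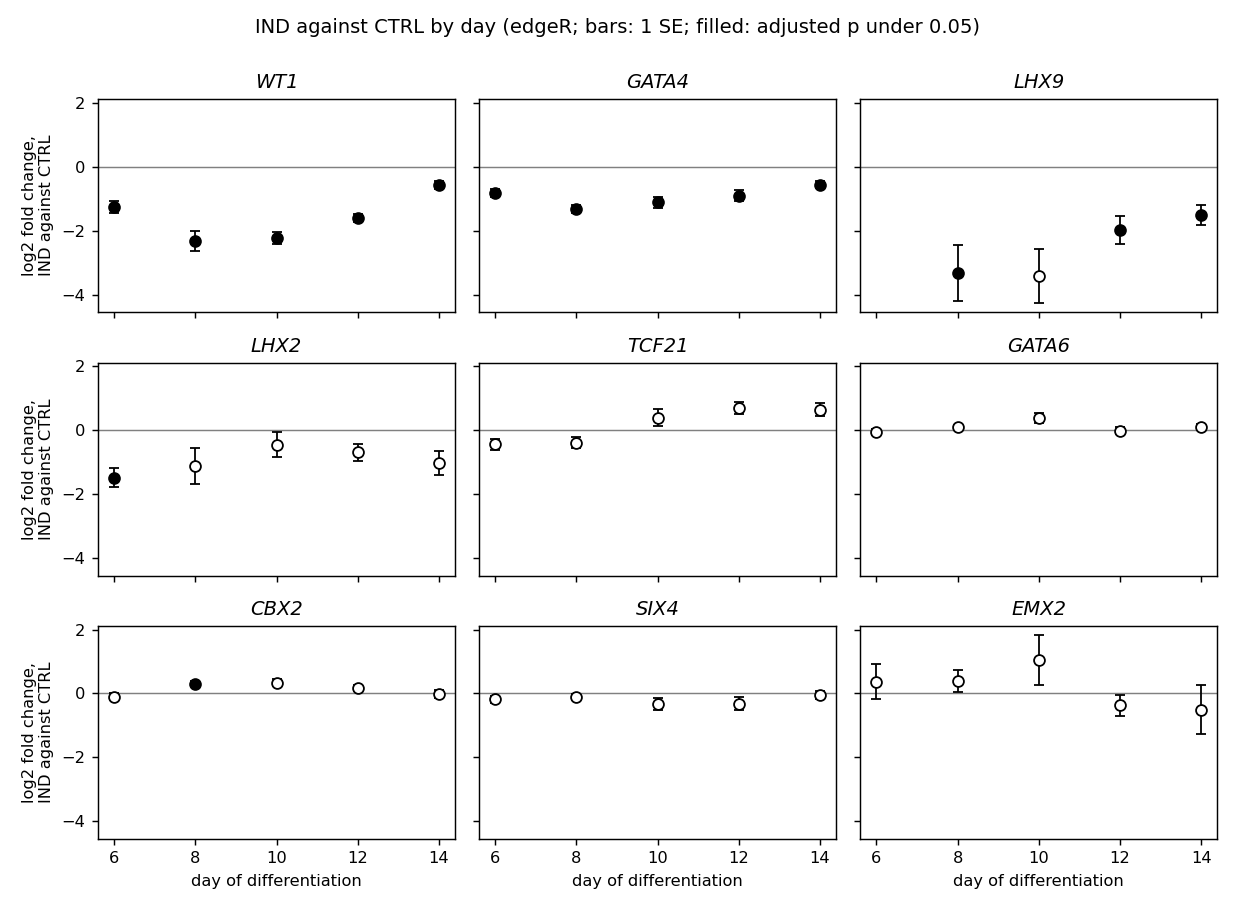
Log2 fold change of IND against CTRL (edgeR) for the 9 members tested at 4 or more days, with bars of 1 SE. Filled circles passed an adjusted p of 0.05, which WT1 and GATA4 did at all 5 days, LHX9 at days 8, 12 and 14, LHX2 at day 6 and CBX2 at day 8.

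WT1, the zinc finger factor needed to maintain the coelomic epithelium and later the gonad and kidney, was at the floor at day 4, with 0, 1 and 0 counts in the 3 libraries. The CTRL libraries then had 23.7, 23.6 and 25.3 CPM at day 6 and 70.1, 81.9 and 90.8 at day 8. From then on they had 135, 145 and 122 at day 10, 131, 120.1 and 126 at day 12 and 141, 117 and 173 at day 14. The IND libraries had 13.5, 9.23 and 7.43 CPM at day 6 and 9.17, 18.4 and 20.4 at day 8. Later IND libraries had 29.8, 33.5 and 21.8 at day 10, 39.2, 39.8 and 45.3 at day 12 and 96.1, 89.6 and 105 at day 14. No IND library reached the lowest CTRL library of its day, and CTRL stayed between means of 126 and 144 CPM from day 10 on while IND was still climbing. Set against the level of 3 counts in the day 4 libraries (0.109 CPM at most), the mean was at least 222-fold higher at day 6 in CTRL and at least 92.2-fold higher in IND, and at day 14 at least 1320-fold and 888-fold higher.

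The mean WT1 level of IND was 41.5% of CTRL at day 6, 19.8% at day 8 and 21.2% at day 10. It was 32.99% at day 12 and 67.3% at day 14. The log2 fold changes were -1.25 ± 0.18 (SE, edgeR, adjusted p = 0.000677), -2.32 ± 0.31 (0.00692), -2.24 ± 0.19 (0.00673), -1.60 ± 0.11 (0.000441) and -0.57 ± 0.13 (0.0219) in the same order of days. The absolute difference on the log2 scale was thus largest at days 8 and 10 and smallest at day 14. A change of the IND effect over the 5 days was tested by the interaction of day and induction over 30 libraries (edgeR). WT1 passed (adjusted p = 0.00140), as 1 of 10 members, where 2.38% of all genes tested did. TCF21 was just short of the threshold (0.0514). The interaction of WT1 did not pass without replicate 1 (0.0545) or replicate 2 (0.158) of every group. At day 10 the call of WT1 between IND and CTRL was lost without day 10 CTRL replicate 1 or 2 (adjusted p 0.0533 to 0.0665). At day 14 it was lost without day 14 CTRL replicate 1 or day 14 IND replicate 1 or 2 or 3 (adjusted p 0.0630 to 0.0854), in limma on FPKM (0.0596) and in 1 fit over 33 libraries (0.133). Without the day 10 IND library of replicate 2, the log2 fold change at day 10 was -2.38 (adjusted p = 1.26e-05, over all alternatives 4.25e-23 to 0.0665).

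WT1-AS, a long noncoding RNA gene that starts 112 bases inside WT1 and runs the other way, had a similar course at a lower level in CPM. Its 3 day 4 libraries had 0 counts. CTRL libraries had 4.84, 3.22 and 3.32 CPM at day 6 and 8.74, 9.62 and 11.7 at day 8. Later it reached 16.9, 16.7 and 14.2 at day 10, 15.6, 13.9 and 14.9 at day 12 and 15.5, 13.6 and 17.5 at day 14. IND libraries had 2.97, 1.15 and 0.725 CPM at day 6 and 0.616, 2.15 and 2.10 at day 8. In later IND libraries it was at 3.52, 2.20 and 2.68 at day 10, 7.01, 5.32 and 6.03 at day 12 and 11.6, 10.5 and 11.5 at day 14. The groups did not overlap on any of these days. WT1-AS was called lower in IND at day 8 (log2 fold change -2.60 ± 0.39, edgeR, adjusted p = 0.00368), day 10 (-2.50 ± 0.23, 0.00721) and day 12 (-1.27 ± 0.16, 0.00411), and missed the threshold at day 6 (0.231) and day 14 (0.0507). RF02204, an entry annotated as misc_RNA within the span of WT1-AS and on its strand, had at most 1.28 CPM. Whether it is a transcript separate from WT1-AS was not tested. It was called lower in IND at day 8 (edgeR, adjusted p = 0.00564), where the IND libraries held 1, 1 and 0 counts. RF02204 passed the low count filter at day 8 only through CTRL, where it was high (22, 12 and 10 counts). RF02203 and RF02205 had 0 counts in all libraries.

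Markers of mesothelium and coelomic epithelium, the cell layer in which WT1 is best known, were measured beside it, with 6 of 6 markers found and none at the floor of 3 counts in all libraries of a group. Their summed CPM were 1147 to 1470.2 at day 4, and 1187 to 1262 in CTRL and 833 to 1113 in IND at day 6. At day 8 they were 847 to 1057 and 810.2 to 1052, and at day 10 1037 to 1156 and 788 to 1540.1. At day 12 they were 955 to 1156 and 781 to 1093, and at day 14 829.5 to 1220.3 and 735 to 836. The sums of IND were all below those of CTRL at day 6 and overlapped them later. TBX18, a T-box factor of the coelomic lining, was called lower in IND at all 5 days and BNC1, a zinc finger factor of such epithelia, at days 6, 8, 10 and 12. UPK3B was lower at days 8 and 10, KRT19 and ALDH1A2 were lower at day 14, and MSLN was higher at day 6. At day 14 TBX18 was at 133, 93.0 and 164 CPM in CTRL and between 16.2 and 20.3 CPM in the 3 IND libraries (log2 fold change -2.78 ± 0.22, edgeR, adjusted p = 0.000429). The part of cell makeup in the WT1 difference was not tested.

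**Figure D3:**
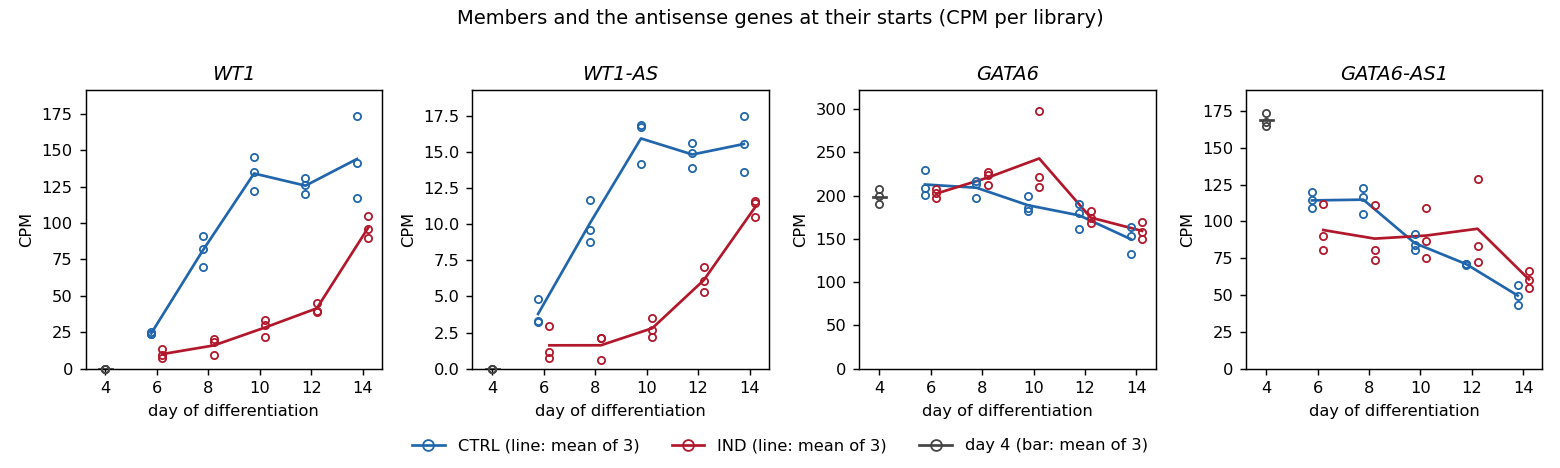
CPM of WT1, WT1-AS, GATA6 and GATA6-AS1 by day, with 1 circle per library and lines through the means of 3 CTRL (blue) or IND (red) libraries. WT1-AS follows the shape of WT1 on a smaller scale, and GATA6-AS1 is highest at day 4.

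GATA4 (chr8:11676959-11760002, plus strand), the zinc finger factor required to start the genital ridge and also known from heart, was present at day 4 with 54.8, 49.3 and 60.6 CPM. In CTRL it rose to 233, 250.2 and 174 CPM at day 6 and 303, 422 and 368 at day 8. It then stood at 502, 442 and 413 at day 10, 309, 408 and 478 at day 12 and 347, 292 and 328 at day 14. IND libraries reached 108, 135 and 124 CPM at day 6 and 131, 161 and 137 at day 8. Their later values were 180.3, 256 and 189 at day 10, 227, 195 and 218 at day 12 and 195, 245 and 216 at day 14. GATA4 thus rose above day 4 in IND as well, at all 5 days, but all IND libraries were below all CTRL libraries of their day. Its order over the groups ran from day 10 CTRL at the top to day 4 at the bottom, and the IND groups of days 10, 12 and 14 overlapped the day 6 CTRL group, which their CTRL partners had passed.

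The GATA4 mean in IND was 55.8%, 39.3%, 46.1%, 53.6% and 67.9% of CTRL on the 5 days in order. Log2 fold changes were -0.82 ± 0.13 (SE, edgeR, adjusted p = 0.00199) and -1.34 ± 0.12 (0.000169) at the first 2 of these days. They were -1.11 ± 0.17 (0.0313), -0.90 ± 0.16 (0.0173) and -0.55 ± 0.10 (0.00399) at the other 3. The change of this effect over days did not pass the interaction test (edgeR, adjusted p = 0.218). The day 6 call was lost without day 6 CTRL replicate 1 (adjusted p = 0.108). At day 10 it was lost without day 10 CTRL replicate 1 or 2 or 3 or day 10 IND replicate 1 or 3 (adjusted p 0.0928 to 0.175) and with the replicate block (0.113). The day 10 value of GATA4 was -1.30 without the day 10 IND library of replicate 2 (adjusted p = 4.87e-07, over all alternatives 4.87e-07 to 0.175). At day 12 the call was lost without day 12 CTRL replicate 2 or 3 or day 12 IND replicate 2 (adjusted p 0.0613 to 0.0734). GATA4 stayed called at days 8 and 14 whichever library was left out.

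GATA6 (chr18:22169443-22202528, plus strand), which shares its DNA site with GATA4, stayed within 133 to 298 CPM over all 33 libraries. No comparison of IND with CTRL passed for it, with adjusted p (edgeR) of 0.867, 0.416, 0.347, 0.938 and 0.635 from day 6 to day 14. At day 10 its IND libraries, at 221, 298 and 209.6 CPM, were all above CTRL, at 199, 186 and 182 CPM, with the highest value in the library that stood apart. A single fit over 33 libraries called that difference (0.0191, over all alternatives 0.0191 to 0.801), and without the library it was 0.19 (adjusted p = 0.0734). Against day 4 it fell at day 14 in CTRL (log2 fold change -0.41 ± 0.11, edgeR, adjusted p = 0.0137) and in IND (-0.33 ± 0.10, 0.0164). Scaling by library totals alone ended both calls (adjusted p = 0.158 and 0.307). The CTRL call was also lost without day 4 replicate 1 or day 14 CTRL replicate 1 or 2 (adjusted p 0.0542 to 0.0735). The IND call was also lost without day 4 replicate 1 or day 14 IND replicate 1 or 3 (adjusted p 0.0574 to 0.0978) and with no low count filter (0.0676). The antisense gene GATA6-AS1 went from 169 ± 4.31 CPM at day 4 to 49.7 ± 6.81 in CTRL and 60.6 ± 5.88 in IND at day 14 (SD, n = 3 each). It was called lower than day 4 at all 5 days in both arms, with no call between IND and CTRL.

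Per transcript length, the balance of both GATA factors shifted from GATA6 to GATA4, later in IND than in CTRL. The ratio of GATA4 to GATA6 in FPKM was 0.245 by the group means at day 4 and at most 0.270 in a day 4 library. In CTRL it was 0.989, 0.970 and 0.772 at day 6, 1.37, 1.73 and 1.53 at day 8, 2.24, 2.11 and 2.02 at day 10, 1.70, 2.02 and 2.23 at day 12 and 2.01, 1.95 and 1.78 at day 14. IND libraries had 0.486, 0.577 and 0.545 at day 6, 0.548, 0.641 and 0.537 at day 8, 0.724, 0.761 and 0.800 at day 10, 1.11, 1.03 and 1.12 at day 12 and 1.15, 1.29 and 1.21 at day 14. All CTRL libraries were above 1 from day 8 and all IND libraries from day 12, and the arms did not overlap on any day. No test was run on this ratio.

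**Figure D4:**
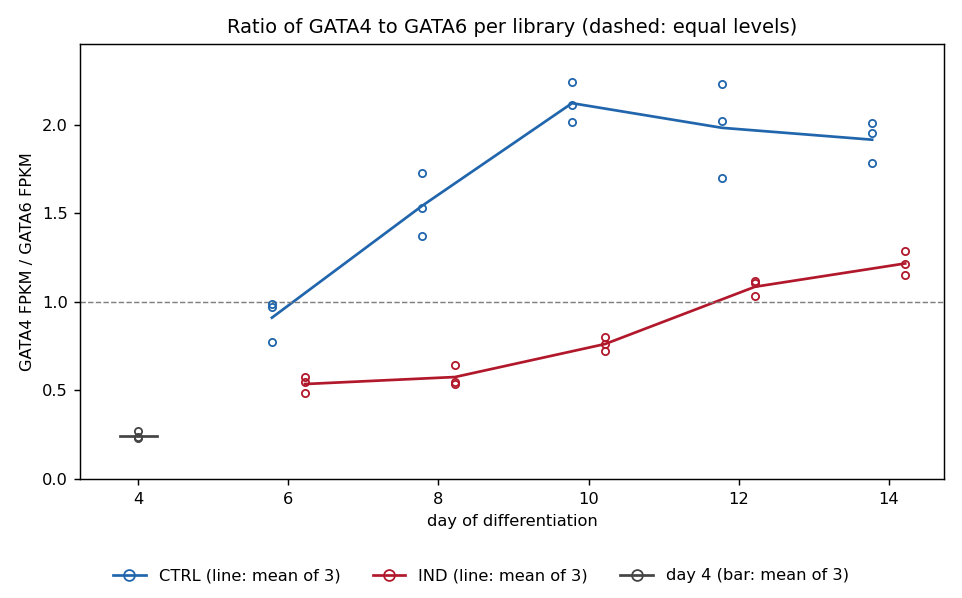
GATA4 FPKM divided by GATA6 FPKM in each library by day of differentiation, with lines through the mean ratio of 3 CTRL (blue) or IND (red) libraries and a grey bar for day 4. CTRL passed the dashed line of equal levels at day 8 and IND at day 12.

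Because GATA4 is also a heart factor, 6 cardiac muscle markers were measured beside it, and all 6 were found. Their summed CPM were 72.6 to 106 at day 4, 196 to 237 in CTRL and 108 to 131 in IND at day 6. They were 219 to 252 and 78.4 to 121 at day 8 and 277 to 326 and 141 to 218 at day 10. Days 12 and 14 gave 271 to 314 and 171 to 316, and 243 to 342 and 205 to 250.1. TNNT2 and TNNI1, the troponins of the list, were called lower in IND at days 6 and 8 and no marker was called at days 10, 12 or 14. The defining heart genes MYH6, MYH7 and NKX2-5 had group means of at most 1.79 CPM. Definitive endoderm markers, 6 of 6 found, summed to 90.4 to 172 CPM in CTRL and 89.6 to 277 in IND at day 6 and to 51.8 to 145 and 159.9 to 417 at day 8. The sums were 35.9 to 104 and 163 to 343 at day 10 and 29.01 to 89.2 and 152 to 249.4 at day 12. At day 14 they were 35.8 to 40.7 and 32.2 to 81.6. All IND sums were above all CTRL sums at days 8, 10 and 12 and overlapped them at days 6 and 14, while GATA4 was called lower at each of these days. FOXA2 at day 12 was the 1 call of that list, higher in IND. CER1 and GSC, which mark early endoderm, were at the floor in CTRL at day 8, and CER1 also in IND at day 6 and in CTRL at day 14. The part of other cell types in the GATA4 difference was not tested.

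LHX9, the LIM homeobox factor without which the mouse gonad does not form, appeared later than WT1. It had no count in the 3 day 4 libraries and at most 2 counts in each day 6 library of either arm, so day 6 was not tested. CTRL libraries had 0.333, 0.890 and 0.481 CPM at day 8, 1.97, 1.78 and 2.23 at day 10, 3.27, 6.34 and 7.45 at day 12 and 9.75, 5.65 and 6.17 at day 14. IND libraries had 0, 0 and 0.142 CPM at day 8, 0.268, 0 and 0.245 at day 10, 0.737, 2.25 and 1.35 at day 12 and 1.43, 2.75 and 3.29 at day 14. All IND libraries were below all CTRL libraries of these 4 days, and IND at day 14 overlapped CTRL at day 10. Its mean in IND was 8.36%, 8.57%, 25.4% and 34.6% of CTRL at days 8, 10, 12 and 14.

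LHX9 was called lower in IND at day 8 (log2 fold change -3.33 ± 0.87, edgeR, adjusted p = 0.0284), day 12 (-1.97 ± 0.43, 0.0359) and day 14 (-1.51 ± 0.31, 0.0110). At day 10 it missed the threshold in spite of a similar size (-3.41 ± 0.84, 0.113). There too it passed the low count filter only through CTRL, since the IND libraries held 13, 0 and 12 counts. It was called without the day 10 IND library of replicate 2, in which it had 0 counts (log2 fold change -2.95, adjusted p = 2.91e-05, over all alternatives 6.84e-06 to 0.460). The day 8 call rests on few counts, since the IND libraries held 0, 0 and 7, and LHX9 passed the low count filter only through CTRL. It was lost without day 8 CTRL replicate 1 or 2 or 3 or day 8 IND replicate 1 or 2 (adjusted p 0.0614 to 0.0915). The day 12 call was lost without day 12 CTRL replicate 2 or 3 or day 12 IND replicate 1 or 3 (adjusted p 0.0513 to 0.126). limma on FPKM ended the calls at day 8 (0.203) and day 12 (0.0743), and a single fit over 33 libraries that at day 14 (0.0949). Compared with the level of 3 counts at day 4, LHX9 was at least 66.0-fold higher at day 14 in CTRL and at least 22.8-fold higher in IND.

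LHX2, its relative, was present at day 4 at 0.582, 0.970 and 2.71 CPM and was called above day 4 at all 5 days in CTRL and from day 8 in IND. CTRL libraries had 4.87, 8.96 and 3.56 CPM at day 6 and 11.6, 31.4 and 17.2 at day 8. Later CTRL values were 39.7, 38.0 and 43.6 at day 10, 31.1, 51.5 and 73.5 at day 12 and 68.2, 48.2 and 33.3 at day 14. IND libraries had 1.85, 2.19 and 2.06 CPM at day 6 and 10.4, 12.8 and 4.29 at day 8. Later LHX2 values in IND were 16.6, 48.8 and 22.5 at day 10, 35.9, 34.2 and 25.7 at day 12 and 17.1, 35.4 and 20.6 at day 14. The groups were separate at day 6 and overlapped at the 4 later days. LHX2 was called lower at day 6 (log2 fold change -1.49 ± 0.30, edgeR, adjusted p = 0.00967), a call that was lost without day 6 CTRL replicate 1 or day 6 IND replicate 2 (adjusted p 0.0542 to 0.0565), in limma on FPKM (0.109) and in a single fit over 33 libraries (0.179). The values at days 8 to 14 were -1.12 ± 0.56 (0.274), -0.46 ± 0.39 (0.586), -0.70 ± 0.28 (0.213) and -1.03 ± 0.38 (0.198). Without the day 10 IND library of replicate 2, which had the highest LHX2 of its group, the day 10 difference was -1.05 (adjusted p = 0.000121, over all alternatives 0.000121 to 0.820). Against day 4 in CTRL, the day 6 call was lost without day 4 replicate 1 or 2 or day 6 CTRL replicate 1 or 2 (adjusted p 0.0543 to 0.0787).

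Since LHX2 is also a gene of the developing brain, 6 neuron markers and 6 neural progenitor markers were measured, and all were found. The neuron markers summed to 40.2 to 49.3 CPM in CTRL and 26.8 to 45.4 in IND at day 6. The same sums were 96.7 to 141 and 58.5 to 68.7 at day 8 and 177 to 263 and 48.3 to 136 at day 10. They were 257 to 454 and 126 to 206 at day 12, and 365 to 637 and 280.4 to 344 at day 14. From day 8 on, 3 or 4 of the 6 were called lower in IND. Of all genes tested, 14.2%, 2.03%, 5.42% and 8.43% were called in either direction on these days. At day 14 the neuron markers called were ELAVL3 and ELAVL4, neuronal RNA-binding proteins, STMN2, a microtubule regulator, and TUBB3, a neuronal tubulin. STMN2 differed by a log2 fold change of -1.90 ± 0.25 at day 14 (edgeR, adjusted p = 0.00646). The neural progenitor markers summed to 91.9 to 183 CPM in CTRL and 92.6 to 124 in IND at day 14, with FABP7 called lower, and HES5 was called lower at day 6. Of 6 nephron progenitor markers, HOXD11 was at the floor of 3 counts in every group and EYA1 was called lower in IND at day 14, the 1 call of that list. No pluripotency marker was called on any day. The neuron markers called lower from day 8 on were on the same side as LHX9, and their part in the LHX differences was not tested.

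TCF21, the mesenchymal factor, had higher values in IND than in CTRL at the end, by a difference that missed the threshold. It was at 6.22, 6.24 and 4.95 CPM at day 4. CTRL libraries had 10.1, 9.89 and 7.66 CPM at day 6 and 9.12, 13.4 and 13.0 at day 8. Later TCF21 values in CTRL were 10.5, 10.6 and 10.8 at day 10, 8.94, 11.7 and 12.0 at day 12 and 12.4, 7.55 and 8.61 at day 14. IND libraries had 6.75, 6.29 and 7.14 CPM at day 6 and 7.86, 8.04 and 10.8 at day 8. From day 10 IND had 16.2, 8.33 and 17.2 at day 10, 21.0, 13.8 and 17.7 at day 12 and 12.6, 18.2 and 13.9 at day 14. All IND libraries were below CTRL at day 6 and above CTRL at days 12 and 14, and the groups overlapped at days 8 and 10.

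No difference of TCF21 between IND and CTRL passed the threshold at a single day. The log2 fold changes were -0.44 ± 0.17 (SE, edgeR, adjusted p = 0.234) at day 6 and -0.40 ± 0.18 (0.172) at day 8. From day 10 on they were 0.40 ± 0.28 (0.523), 0.69 ± 0.19 (0.0810) and 0.64 ± 0.20 (0.0738). The interaction of day and induction gave an adjusted p of 0.0514 and, without the day 10 IND library of replicate 2, 0.00363 (edgeR, over all alternatives 0.000251 to 0.420). Without that library the day 10 difference was 0.65 (adjusted p = 0.000726, over all alternatives 0.000726 to 0.822). Leaving out other libraries gave a call at day 8, without day 8 IND replicate 3 (adjusted p = 0.0373), and at day 14, without day 14 CTRL replicate 1 (adjusted p = 0.0210). DESeq2 called TCF21 higher at day 12 (adjusted p = 0.0184) and day 14 (0.0187), and over all alternatives the adjusted p ran from 0.0162 to 0.281 at day 12 and from 0.00112 to 0.2304 at day 14.

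Against day 4, TCF21 was called higher at every day in CTRL, by log2 fold changes of 0.66, 1.03, 0.89, 0.90 and 0.72, and in IND at days 8, 10, 12 and 14, by 0.63, 1.26, 1.59 and 1.35. The CTRL calls at day 6 and day 14 were lost without day 4 replicate 1 or 3 or day 6 CTRL replicate 1 or 2 (adjusted p 0.0531 to 0.132) and without day 4 replicate 1 or day 14 CTRL replicate 1 (adjusted p 0.0624 to 0.156), in this order. The day 6 call of CTRL was also lost in limma on FPKM (adjusted p = 0.0552). In IND the day 8 call was lost without day 4 replicate 1 or 3 or day 8 IND replicate 1 or 2 or 3 (adjusted p 0.0644 to 0.139). The day 10 call was lost without day 4 replicate 1 or 2 or 3 or day 10 IND replicate 1 or 3 (adjusted p 0.0930 to 0.114). With the replicate number as a block these calls of IND had an adjusted p of 0.0835 and 0.112. TARID, an antisense gene that overlaps TCF21 over 3665 bases, had at most 1.67 CPM in any library.

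CBX2, the Polycomb chromatin protein needed for gonadal growth in mice, was among the highest members at day 4, with 176, 159 and 236 CPM, and stayed near that level at day 6 before it declined. CTRL libraries had 145, 156 and 143 CPM at day 8 and 119, 133 and 94.2 at day 14. The fall from day 4 was called in CTRL at days 10, 12 and 14 (log2 fold change -0.61 ± 0.14, -0.77 ± 0.15 and -0.72 ± 0.17) and in IND at days 12 and 14 (-0.61 ± 0.17 and -0.75 ± 0.15). The day 12 call of IND was lost without day 4 replicate 3 or day 12 IND replicate 3 (adjusted p 0.0512 to 0.0584) and with library totals alone (0.0802). At day 8 the IND libraries, with 195, 186 and 162 CPM, were all above CTRL (log2 fold change 0.30 ± 0.08, edgeR, adjusted p = 0.0335). This call was lost without day 8 CTRL replicate 1 or 3 or day 8 IND replicate 1 or 2 (adjusted p 0.132 to 0.168), in limma on FPKM (0.0718) and in a single fit over 33 libraries (0.245). They were also above CTRL at days 10 and 12, where the difference did not pass (0.242 and 0.406), and overlapped at days 6 and 14. Without the day 10 IND library of replicate 2, CBX2 at day 10 was called higher (adjusted p = 0.0178, over all alternatives 0.0178 to 0.741).

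SIX4, the homeobox factor, lay between 13.1 and 33.9 CPM over all libraries, with each group overlapping the next in its order of means. At day 6 all IND libraries were below all CTRL libraries, and at the other days they overlapped. It was called neither between IND and CTRL nor against day 4. Its log2 fold change of IND against CTRL was negative at all 5 days, between -0.34 and -0.05, with adjusted p (edgeR) from 0.396 to 0.861. The day 10 value of SIX4 was -0.21 without the day 10 IND library of replicate 2 (adjusted p = 0.235). Without day 4 replicate 3, which had the lowest SIX4 of its group, it was called lower than day 4 in CTRL at days 12 and 14 (adjusted p = 0.0207 and 0.0390) and in IND at days 6 and 14 (0.00950 and 0.00366). A single fit over 33 libraries called it lower than day 4 in IND at days 10 and 12 (0.0276 and 0.0174).

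NR5A1, the steroidogenic receptor toward which several of the other factors act, was barely detected. Its counts ranged from 0 to 22 per library, which is at most 0.562 CPM, and a library's level of 3 counts was 0.0564 to 0.129 CPM. The day 4 libraries held 3, 0 and 3 counts, the day 12 CTRL libraries 8, 22 and 10, the day 12 IND libraries 17, 20 and 13, the day 14 CTRL libraries 5, 16 and 4 and the day 14 IND libraries 9, 13 and 3. It passed the filter on low counts in 2 of the 15 comparisons. At day 12 IND and CTRL overlapped (log2 fold change 0.56 ± 0.51, edgeR, adjusted p = 0.561). The day 12 IND mean was at least 3.82-fold above the level of 3 counts at day 4, a ratio on which no test was run. Against the day 4 libraries themselves NR5A1 was called higher in day 12 IND (edgeR, adjusted p = 0.0341). It passed the filter of that comparison only through the group where it was high. The call was lost in 8 of 13 alternatives, among them each of the 6 that leave out 1 library (adjusted p 0.0549 to 0.106) and DESeq2 (0.0623).

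EMX2, the homeobox gene needed for the urogenital ridge, stayed at 0.194 to 1.73 CPM, or 7 to 54 counts per library, and passed the test in no comparison. Its log2 fold changes of IND against CTRL were 0.37 ± 0.55, 0.38 ± 0.35, 1.03 ± 0.78, -0.37 ± 0.32 and -0.51 ± 0.77 (SE, edgeR, adjusted p from 0.521 to 0.846). The day 10 value was 0.48 without the day 10 IND library of replicate 2 (adjusted p = 0.662). All IND libraries were below CTRL at day 12 and overlapped it at the other days, and with so few counts the SE reached 0.78 on the log2 scale. EMX2OS, the antisense gene that shares 2625 bases with EMX2, had at most 1.37 CPM.

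**Figure D5:**
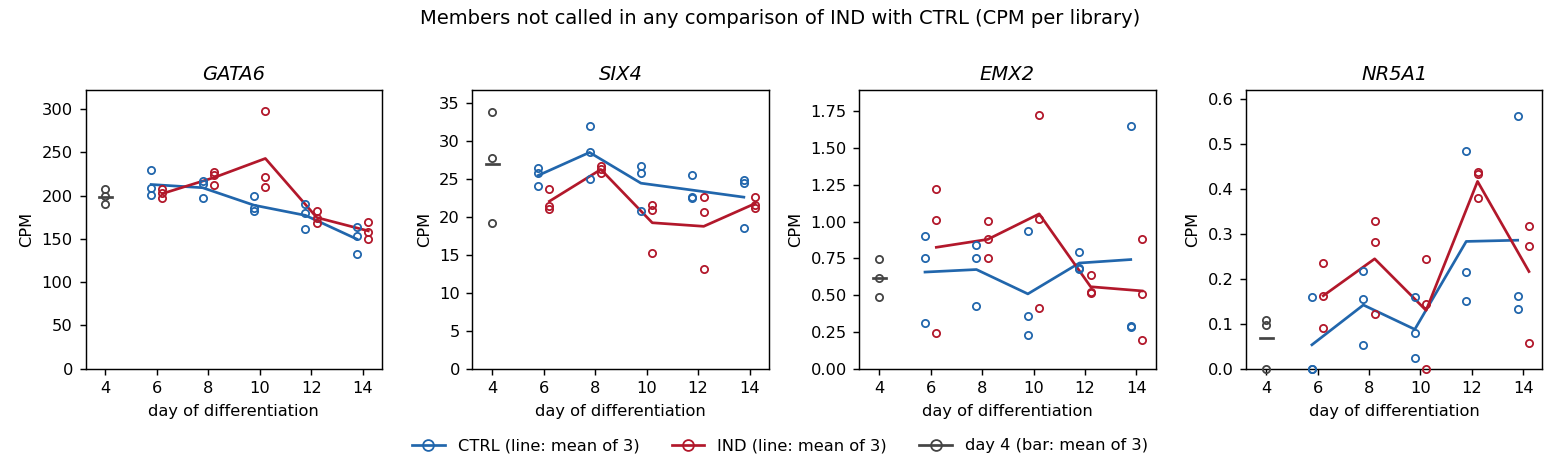
CPM of GATA6, SIX4, EMX2 and NR5A1, which had no call between IND and CTRL, by day, with 1 circle per library, lines through the means of 3 CTRL (blue) or IND (red) libraries and axes that differ between genes. The IND and CTRL libraries of SIX4, EMX2 and NR5A1 overlap at most days, and EMX2 and NR5A1 reach at most 1.73 and 0.562 CPM.

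Other genes of the genital ridge that are known to work with these factors had few calls, some higher and some lower in IND. Of 12 genital ridge partners all were found, and the number higher and lower in IND was 0 and 1 of 11 tested at day 6 and 2 and 1 of 12 at day 8. It was 1 and 0 at day 10, 1 and 1 at day 12 and 2 and 1 at day 14. Of all genes tested, 3.66%, 14.2%, 2.03%, 5.42% and 8.43% were called from day 6 to day 14. The small counts of the list were not tested against these shares. The median log2 fold change of the list lay between -0.08 and 0.13. OSR1, a zinc finger factor of intermediate mesoderm, was higher in IND from day 8 on and at day 14 stood at 5.96, 6.91 and 4.99 CPM in CTRL and 15.7, 22.2 and 14.6 in IND (log2 fold change 1.56 ± 0.19, edgeR, adjusted p = 0.000184). GADD45G, a stress kinase activator upstream of GATA4 in sex determination, was lower at days 6, 8 and 14 (day 14, -0.52 ± 0.12, 0.0129).

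NR5A1 and GATA4 are known to activate 10 listed genes in the differentiated gonad, from steroid enzymes to AMH. All 10 were found, and 6 or 7 were tested a day. None of the 6 tested was called between IND and CTRL at days 10, 12 and 14. Of all genes tested, 2.03%, 5.42% and 8.43% were called on these days. With 6 genes tested, the absence of a call at such shares says nothing about the list. The list's median log2 fold change on these days was -0.27, -0.04 and -0.17. The genes called earlier are named after their values were seen. STAR, the cholesterol carrier of steroidogenesis, was lower in IND at day 6 (-1.19 ± 0.20, edgeR, adjusted p = 0.00197) and day 8 (-1.80 ± 0.18, 0.000102). NR0B1, an orphan nuclear receptor, was lower at day 8 (-1.39 ± 0.33, 0.0172). HSD3B2, a steroid dehydrogenase, was higher at days 6 and 8 from CTRL means of 0.0202 and 0.0545 CPM, and passed the low count filter there only through IND. CYP17A1, HSD3B2, LHCGR and CYP19A1 were each at or below 3 counts in all libraries of at least 1 group. Of 10 cofactors of WT1 and NR5A1, all found and tested, none was called at day 10 and 1 or 2 on the other days. Of all genes tested, 2.03% were called at day 10 and 3.66% to 14.2% on the other days, so nothing is read from these counts. The median log2 fold change of the cofactors lay between -0.14 and 0.07. GATA2, a GATA factor listed there as a partner of NR5A1, was lower in IND at days 6, 12 and 14 (day 14, 12.1 ± 1.30 against 4.89 ± 0.961 CPM, SD, n = 3 each, log2 fold change -1.30 ± 0.18, edgeR, adjusted p = 0.000502). BASP1, a corepressor of WT1, was higher at day 8 (0.53 ± 0.09, 0.00359) and lower at day 14 (-0.52 ± 0.12, 0.0181).

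The members differed in how alike their courses were over the 11 group means of log2 CPM, given here as descriptions over groups that share a time axis. Pearson's r was 0.93 between WT1 and GATA4, 0.87 between GATA4 and LHX2, 0.85 between LHX9 and LHX2 and 0.73 between WT1 and LHX9. CBX2 ran against LHX9 (r = -0.96) and LHX2 (-0.86), and GATA6 against LHX9 (-0.80). Among 12981 or 12982 protein coding genes, those most like WT1 were FAM210B (0.99) and ASXL3 (0.99), a chromatin protein gene. The closest genes were FLRT2 (0.99) and CPNE2 (0.98) for GATA4, LRRC4C (0.99) and KLK5 (0.99) for LHX9 and HSPB7 (0.99) and KCNK6 (0.99) for LHX2. They were TONSL (0.98) and ARHGAP17 (0.97) for CBX2 and PLXDC2 (0.96) and ITM2C (0.94) for TCF21. PHLPP2 (0.98) and PIK3C2A (0.91) were the closest for SIX4, and CPA1 (0.95) and TLN2 (0.95) for GATA6. For EMX2, at about 1 CPM, the highest r were lower (CCM2L, 0.89, and PPM1F, 0.86), and NR5A1 was below the level at which likeness was computed. With the day 10 IND library of replicate 2 left out, ITM2C fell to rank 21 for TCF21 (r = 0.89), PIK3C2A to rank 12 for SIX4 (0.88) and FAM210B to rank 6 for WT1 (0.98), as did PPM1F for EMX2 (0.80). KLK5 was then at rank 5 for LHX9, and the other named genes were at ranks 1 to 3.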

How the data were processed

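Bulk poly-A RNA-seq of 33 libraries (11 groups of 3 technical replicates) was re-analysed for 10 genes. According to the labels and the study's methods, the libraries were non-directional, and the authors had reads trimmed with fastp 0.23.2, mapped to GRCh38 with HISAT2 2.0.5 and counted per gene with featureCounts 1.5.0-p3. The deposited values are raw counts per gene, and the authors also deposited FPKM. The gene coordinates of the 10 genes equal GENCODE release 29.

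From the counts, edgeR 4.0.16 in R 4.3.3 was run for each comparison on its 6 libraries, with filterByExpr, TMM and a robust quasi-likelihood fit and test. Adjustment of p-values ran over all genes tested (Benjamini-Hochberg, threshold 0.05). CPM use TMM over the 33 libraries, with 22613 genes kept. IND was compared with CTRL of the same day, and each with day 4, in 15 comparisons, and the interaction of day and induction (4 terms) was tested over 30 libraries. A gene with at most 3 counts in each library of a group was at the floor, and folds against it are lower bounds. Floors cover counting error only. FPKM served for levels between genes and for limma 3.58.1 on log2(FPKM + 1). Other alternatives were DESeq2 1.42.0, other scaling, no filter, 1 fit over 33 libraries, a replicate block and each library left out. Within groups, libraries differed beyond sampling noise (33 pairs, chi-squared per gene 7.82 to 246, none identical). The tests were checked on simulated data with 200 changed genes.

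Named were all 10 members, FOXL2, genes overlapping a member or starting near it on the other strand, the 2 most alike genes, and up to 3 genes of each list called at day 14 with the largest log2 fold change. The members and lists were chosen with earlier results of these data known. Calls in every list stand beside shares of all genes called between IND and CTRL. These were 3.66%, 14.2%, 2.03%, 5.42% and 8.43% from day 6 to day 14. Results of some list genes are not reported here.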

Additional observations from a re-analysis of the deposited data

Results flagged for a closer look

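The effect of induction on WT1 differed between days by a test of the difference itself. The interaction of day and induction over the 30 libraries after day 4 had an adjusted p of 0.00140 (edgeR, 4 terms), with IND below CTRL in 9 of 9 pairs of libraries at each of the 5 days. It passed in 8 of 10 alternatives, and was 0.0545 without replicate 1 and 0.158 without replicate 2 of every group. Without the day 10 IND library that stood apart it was 0.00146.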

How the results depend on the processing

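Of 1716 alternative values of 132 member results, 84 lost and 26 gained a call and 41 changed sign, 0 of these with a call. When 1 library was left out, the members called between IND and CTRL numbered 1 to 3 at day 6, 2 to 5 at day 8, 0 to 6 at day 10, 1 to 3 at day 12 and 2 to 3 at day 14. Against day 4 they numbered 2 to 4, 5 to 6, 6 to 6, 6 to 7 and 5 to 8 in CTRL and 2 to 4, 3 to 4, 3 to 4, 5 to 6 and 6 to 8 in IND, in the same order of days. The share of all genes called, not given beside these counts, moved as well. Between IND and CTRL at day 10 it was 2.03% with all libraries and 18.2% without the day 10 IND library of replicate 2. For the interaction, either 1 replicate number was left out of every group, or the day 10 IND library of replicate 2 alone. It then counted 0 to 2 members, against 1 with all libraries.

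limma on log2(FPKM + 1) called 2 members at day 8 between IND and CTRL, against 4. A single fit over 33 libraries called 4 at day 10, against 2, 1 at day 14, against 3, and 7 in IND against day 4 at day 10, against 4. A limit of 1 on the absolute log2 fold change left 1 at day 14 between IND and CTRL and 4 at day 14 in CTRL against day 4. The interaction called 2 members by the DESeq2 likelihood ratio test, 2 by limma and 5 with no filter on low counts. Apart from fewer libraries or a stricter limit, the cause was not tested, and no share of all genes is given beside these counts.

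Samples with the same replicate number did not deviate together (45 pairs, correlation -0.18 to 0.14, 2 over 0.1), so the numbers were not taken as pairs. With the replicate block 1 member, WT1, was called between IND and CTRL at day 10. Counts as low as those of NR5A1, EMX2 and early LHX9 limit what could be detected.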
